A study of Mus musculus with 19 samples.

Results

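The 10 genes studied here are ones that the kidney uses to handle phosphate, calcium and vitamin D, measured in mice lacking the histone variant isoform macroH2A1.1. They were chosen by name and role, with earlier results of these data known, and are 10 of the 26506 genes counted. Slc34a1, Slc34a3 and Slc20a2 carry phosphate, Pth1r and Kl receive hormone signals, Cyp24a1, Cyp27b1 and Vdr handle vitamin D, and Trpv5 and Calb1 carry calcium. MacroH2A1.1 is made by alternative splicing of H2afy, and its macrodomain binds ADP-ribose. Poly(A) RNA of homogenized whole kidney and whole liver from male mice was sequenced. The groups were 5 knockout (KO) kidneys, 5 wild-type (WT) kidneys, 5 KO livers and 4 WT livers. The KO mice were homozygous for a deletion of alternative exon 6b of H2afy, made by treating zygotes that carried floxed sperm DNA with soluble Cre enzyme, so the deletion is not limited to a tissue. KO and WT mice both came from crosses of heterozygotes, on a C57BL/6J background after at least 10 generations of backcrossing. The ages, and which mice ate standard or ketogenic chow, are not given in the sources used here. The liver of WT mouse 23 was not analysed here. The labels do not state that each library is a different animal, and the p-values refer to the spread from library to library, which may be technical in part.

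The kidney sets how much phosphate and calcium stays in the body. Phosphate is taken back from the filtrate in the proximal tubule by sodium-coupled transporters of the brush border, which parathyroid hormone, acting on Pth1r, and FGF23, acting with its co-receptor klotho (Kl), withdraw from the membrane. The proximal tubule also makes active vitamin D with the enzyme Cyp27b1, while Cyp24a1 breaks it down, and the vitamin D receptor Vdr carries its signal. In the distal and connecting tubule, calcium enters through the channel Trpv5 and crosses the cell bound to calbindin-D28k (Calb1).

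The sequences shown first are those that bear on what the counts can and cannot say. Slc34a1 was the only one of the 10 genes whose KO and WT kidney values did not overlap, and the 300 bases around its start (250 before and 50 after, RefSeq, GRCm38.p6, plus strand, chr13:55399398-55399697) are given with capitals marking matches, on either strand, to a core motif of the kidney and liver factor HNF1, spelled GTTAAT, and to the TATA box.
Slc34a1 promoter: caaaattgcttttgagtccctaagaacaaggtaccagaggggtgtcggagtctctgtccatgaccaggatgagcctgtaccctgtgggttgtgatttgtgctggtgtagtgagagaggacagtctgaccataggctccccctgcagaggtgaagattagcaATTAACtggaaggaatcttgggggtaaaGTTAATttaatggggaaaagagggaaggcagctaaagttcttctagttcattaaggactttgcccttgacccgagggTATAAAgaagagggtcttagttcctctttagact
The RefSeq start used here lies 1461 bases after the GENCODE gene start given further on, so the window is inside the GENCODE gene. The HNF1 matches lie 89 bases before the listed start on the minus strand and 61 bases before it on the plus strand. They do not overlap each other or the TATA box (searched as TATAAA), which lies after the listed start. Among all 32851 promoters of the same length in the table, 7.1% hold the HNF1 motif and 13.6% the TATA box. The table held 9 promoters of 7 of the 10 genes. It had no promoter of Slc20a2, Cyp24a1 or Calb1, so no motif was searched for in these genes. The HNF1 motif was found in the Slc34a1 promoter and in none of the other 8, and the TATA box in those of Slc34a1 and Trpv5. An E-box, spelled CACGTG, and a vitamin D response element of the DR3 type, searched on both strands, were found in 0 of the 9, against 7.15% and 0.0396% of all promoters.

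Close relatives can share sequence, so the longest identical stretches of coding sequence (GENCODE M21 transcripts) are shown in capitals with 6 flanking bases, for the pair with the longest run and for the renal phosphate cotransporter pair.
Trpv5, from coding base 475: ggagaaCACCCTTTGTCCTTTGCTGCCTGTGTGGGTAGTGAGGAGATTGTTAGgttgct
Trpv6, from coding base 613: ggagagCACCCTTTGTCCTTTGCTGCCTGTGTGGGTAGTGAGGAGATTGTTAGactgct
Slc34a1 coding stretch: acaagaCTCATCATCCAGCTGGAcaagtc
Slc34a3 coding stretch: acacacCTCATCATCCAGCTGGAtagcag
Trpv5 and its neighbour Trpv6, both on chromosome 6, share a run of 47 bases, and Slc34a1 and Slc34a3 share 17. Slc20a1 and Slc20a2 share a run of 23 bases. A read lying wholly inside such a stretch would match both genes exactly, and the read length is not given in the sources used here. Other shared stretches, sequence outside the coding part and inexact matches were not searched. Trpv6 was the rarer transcript, at 1.66 ± 0.28 CPM in KO kidneys and 1.99 ± 0.378 CPM in WT kidneys (SD, n = 5 each). CPM is a gene's count per 1000000 counts of its library, after scaling by edgeR's TMM method within a tissue.

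A kidney library totalled 25919138 to 35131720 counts, and a liver library 26084473 to 34806035. The targeted gene H2afy had 49.0 to 61.1 CPM in KO kidneys, against 82.4 to 90.8 CPM in WT kidneys 19, 20, 22 and 23, and the library labelled wild-type 24 had 65.6 CPM. In liver H2afy had 42.9 to 52.9 CPM in KO mice, against 74.6 to 86.4 CPM in WT livers 19, 20 and 22, with 53.5 CPM in the library labelled wild-type 24. Both libraries numbered 24 lay above every KO library of their tissue in H2afy, but nearer to those than to the other WT libraries. Each KO to WT fold change of the 10 genes is therefore given with and without the libraries numbered 24. The deletion spares most of the gene, so these counts cannot check the isoform. The test used throughout is edgeR's quasi-likelihood test, and a gene passed at a Benjamini-Hochberg adjusted p under 0.05. H2afy itself did not pass it in kidney (log2 fold change -0.58, edgeR adjusted p = 0.1355) or in liver (-0.61, edgeR adjusted p = 0.384). By DESeq2 it passed in both (adjusted p = 9.14e-05 in kidney and 0.0212 in liver).

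None of the 10 genes passed the test in kidney, where 1 of 17269 genes passed (0.00579%). At an unadjusted edgeR p under 0.05 the count was 1 of the 10, Slc34a1, against 2.95% of all genes tested. DESeq2 called 0 of the 10, against 15 of the 17269 genes. By DESeq2, Slc34a1 was again the 1 of the 10 at an unadjusted p under 0.05, as were 536 genes in all. Slc34a1 was also the only member whose KO and WT kidneys did not overlap, which was so for 97 of 17269 genes (0.562%). Of the 10 genes 7 had a lower KO mean in the fit, with a median log2 fold change of -0.05. Among all genes tested 47.8% were lower and the median was 0.01. Trpv5, Calb1, Cyp27b1 and Cyp24a1 were also below the median of the 10, and their KO and WT libraries overlapped. In whole tissue, fewer cells of a type and less RNA per cell cannot be told apart.

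**Figure D1:**
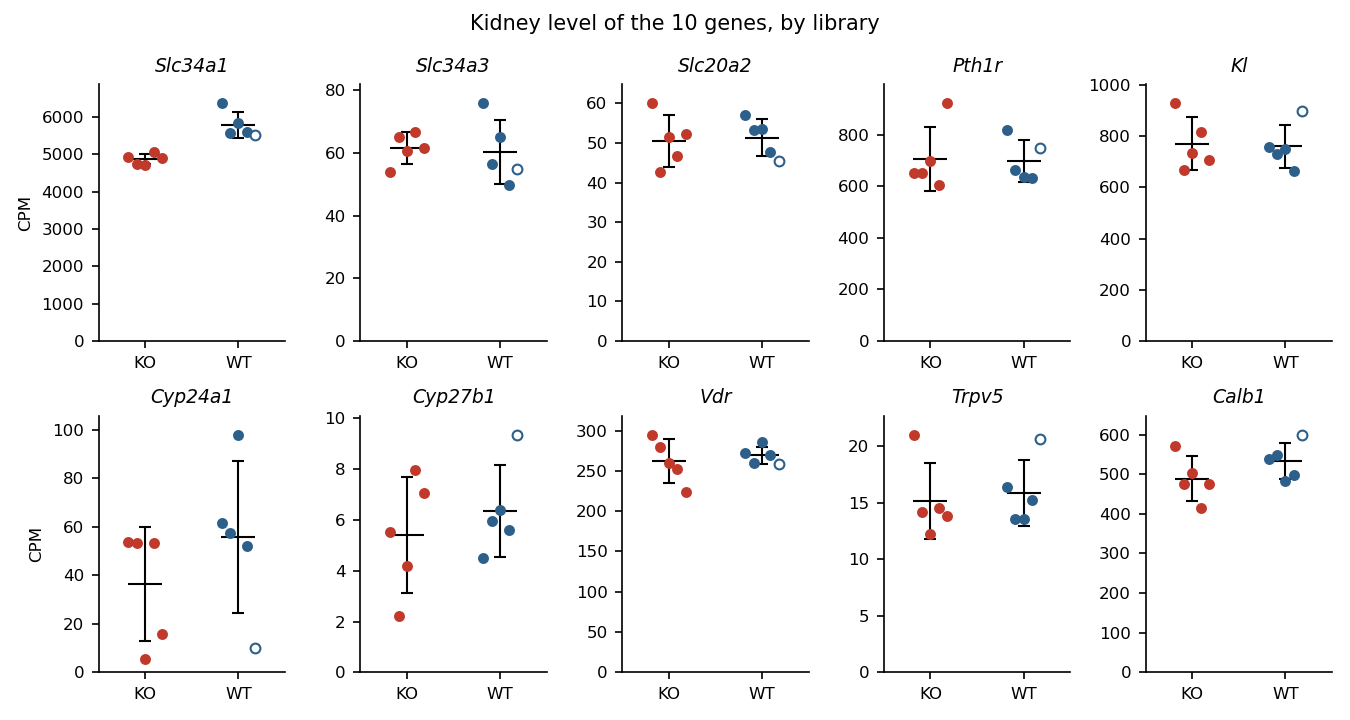
Level of each of the 10 genes in CPM (axes start at 0) in every kidney library, KO left of WT, with the mean and SD as a bar and the library labelled wild-type 24 as an open circle. Slc34a1 is the panel in which the groups do not overlap (KO 4722 to 5053 CPM, WT 5517 to 6357 CPM), and Cyp24a1 is the panel with the widest spread inside each group.

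Slc34a1 (ENSMUSG00000021490, chromosome 13, 55398187 to 55415592, plus strand, GRCm38) encodes NaPi-IIa, the main phosphate cotransporter of the proximal tubule brush border in mice. It took 0.533% of all kidney counts. Pfn3, which was not analysed here, lies within its 3′ end on the opposite strand. KO kidneys 13, 14, 15, 16 and 18 held 4930, 4731, 4722, 5053 and 4891 CPM. WT kidneys 19, 20, 22 and 23 held 6357, 5567, 5845 and 5591 CPM, with 5517 CPM in the library labelled wild-type 24. Every KO value lay below every WT value, and the WT values reached further, with mouse 19 highest. The means were 4865 ± 140 CPM in KO and 5775 ± 349 CPM in WT kidneys (SD, n = 5 each), a log2 fold change of -0.25 (SE 0.08, 95% interval -0.42 to -0.08). This is a difference of -15.8%, and it did not pass after adjustment over all genes (edgeR adjusted p = 0.999). Ranked by p, Slc34a1 was gene 62 of 17269. DESeq2 gave an adjusted p of 0.0826, the lowest over 17 alternative settings, and the fold change kept its sign in all 17, between -0.28 and -0.21. It was -0.26 without the library labelled wild-type 24 and -0.21 without WT mouse 19.

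The lower Slc34a1 level was set beside the other markers of the proximal tubule. The 10 marker genes of this segment (Slc5a2, Slc5a12, Slc22a6, Slc22a8, Slc27a2, Slc13a3, Miox, Aqp1, Cyp2e1 and Slc7a13) summed to 10690 to 11930 CPM in KO kidneys and 11160 to 11810 CPM in WT kidneys, and 5 of the 10 had a higher and 5 a lower KO mean. Slc34a1 divided by that sum was 0.417, 0.443, 0.429, 0.424 and 0.449 in KO kidneys 13, 14, 15, 16 and 18. The same ratio was 0.538, 0.499, 0.499 and 0.478 in WT kidneys 19, 20, 22 and 23 and 0.472 in the library labelled wild-type 24. The groups did not overlap in this ratio, and they overlapped in the marker sum. Slc34a1 alone already separated the groups, so the ratio is not a separate result. The part of proximal tubule content in the Slc34a1 difference was not tested. The ratio was formed after the values had been seen, and no test is given for it.

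Slc34a3 (ENSMUSG00000006469, chromosome 2, 25228898 to 25234364) encodes NaPi-IIc, the second renal cotransporter of this family. KO kidneys held 53.8, 65.2, 60.6, 66.7 and 61.6 CPM, in the order of mice 13 to 18. WT kidneys 19, 20, 22 and 23 held 75.8, 56.5, 65.2 and 49.7 CPM, with 55.0 CPM in the library labelled wild-type 24. The WT kidneys spanned all KO values, and the log2 fold change was 0.03 (95% interval -0.20 to 0.26, edgeR adjusted p = 0.999), or -0.01 without the library labelled wild-type 24. The ratio of Slc34a1 to Slc34a3 was 72.6 to 91.6 in KO kidneys and 83.8 to 113 in WT kidneys, so it overlapped.

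Slc20a2 (ENSMUSG00000037656, chromosome 8, 22476788 to 22569612) encodes PiT-2, a sodium-phosphate transporter found in many tissues. It was at 60.0, 42.6, 51.4, 46.6 and 52.2 CPM in KO kidneys and at 57.0, 53.2, 53.6 and 47.7 CPM in WT kidneys 19, 20, 22 and 23, with 45.3 CPM in the library labelled wild-type 24. These ranges overlapped almost wholly, with a log2 fold change of -0.02 (95% interval -0.23 to 0.19, edgeR adjusted p = 0.999), or -0.06 without that library. Slc20a2 overlaps Smim19 on the opposite strand and the gene model Gm17491 on its own strand, so some of its reads may belong to them.

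Pth1r (ENSMUSG00000032492, chromosome 9, 110722085 to 110747145) encodes the receptor of parathyroid hormone. KO kidneys held 652, 653, 699, 607 and 921 CPM, with mouse 18 well above the others. WT kidneys 19, 20, 22 and 23 held 820, 663, 636 and 632 CPM, with 748 CPM in the library labelled wild-type 24. The log2 fold change was 0.01 (95% interval -0.23 to 0.26, edgeR adjusted p = 0.999), and 0.04 without that library. Myl3 overlaps Pth1r on the opposite strand, with 33 counts over the KO and 25 over the WT kidneys.

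Kl (ENSMUSG00000058488, chromosome 5, 150952607 to 150993817) encodes klotho, the co-receptor through which FGF23 acts on the tubule. It was at 927, 666, 733, 816 and 708 CPM in KO kidneys. It was at 759, 731, 749 and 664 CPM in WT kidneys 19, 20, 22 and 23 and at 897 CPM in the library labelled wild-type 24. KO mouse 13 was highest among the KO kidneys and that library among the WT kidneys, and the groups overlapped. The log2 fold change was 0.02 (95% interval -0.20 to 0.24, edgeR adjusted p = 0.999), and 0.08 without the library.

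**Figure D2:**
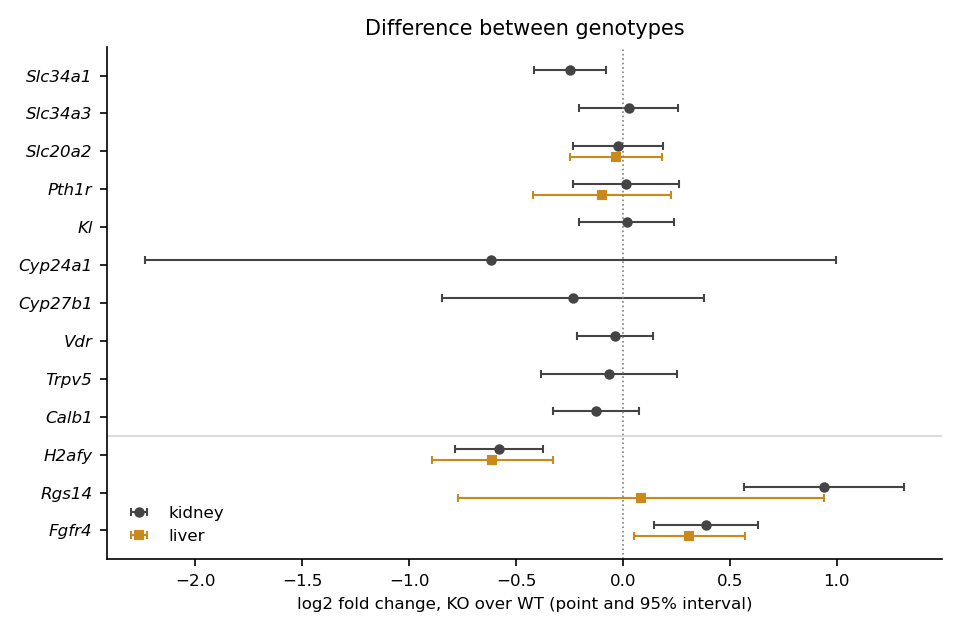
Log2 fold change of KO over WT with its 95% interval in kidney (circles) and, where a gene was tested there, in liver (squares), for the 10 genes and, under the line, H2afy, Rgs14 and Fgfr4. Among the 10 genes the interval excludes 0 for Slc34a1 in kidney (-0.42 to -0.08) before any adjustment for the number of genes, and the interval of Cyp24a1 is the widest (-2.23 to 0.997).

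Cyp24a1 (ENSMUSG00000038567, chromosome 2, 170482708 to 170497145) encodes the 24-hydroxylase that breaks down vitamin D, and it is a textbook target of the vitamin D receptor. KO kidneys 13, 14 and 16 held 53.8, 53.3 and 53.2 CPM, while KO kidneys 15 and 18 held 5.59 and 16.03 CPM. WT kidneys 19, 20, 22 and 23 held 61.5, 57.5, 97.9 and 52.0 CPM, with 10.3 CPM in the library labelled wild-type 24. Low values thus occurred in both genotypes, in 2 KO kidneys and 1 labelled wild type, and the other 7 libraries lay between 52.0 and 97.9 CPM. The means were 36.4 ± 23.6 CPM in KO and 55.8 ± 31.2 CPM in WT kidneys (SD, n = 5 each), a log2 fold change of -0.62 (SE 0.71, 95% interval -2.23 to 0.997, edgeR adjusted p = 0.999). Leaving out 1 mouse moved it between -0.89, without the library labelled wild-type 24, and -0.31, without WT mouse 22. It was -0.34 without KO mouse 15.

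The spread of Cyp24a1 inside the genotypes was large for its level. Its SD of log2 CPM around the genotype means was 1.36, in percentile 99.9 of all genes tested in kidney. The median of the 3045 genes within 1.5-fold of its level was 0.154. Pfdn4 overlaps one end of Cyp24a1 on the opposite strand.

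Cyp27b1 (ENSMUSG00000006724, chromosome 10, 127048250 to 127053006) encodes the 1-alpha-hydroxylase that makes active vitamin D, and it was the member with the fewest kidney reads, 789 counts over 5 KO and 974 over 5 WT kidneys. KO kidneys held 5.51, 2.22, 4.2, 7.97 and 7.07 CPM. WT kidneys 19, 20, 22 and 23 held 4.51, 5.94, 6.4 and 5.60 CPM, with 9.34 CPM in the library labelled wild-type 24. KO mouse 14 was lowest and that library highest of all 10. The log2 fold change was -0.23 (SE 0.28, 95% interval -0.84 to 0.38, edgeR adjusted p = 0.999), and it was -0.06 without the library labelled wild-type 24 and -0.42 without KO mouse 16. Its SD within genotypes was in percentile 91.3 of all genes tested.

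The ratio of the making to the breaking enzyme, Cyp27b1 over Cyp24a1 in CPM, was 0.102, 0.0416, 0.752, 0.15 and 0.441 in KO kidneys 13, 14, 15, 16 and 18. It was 0.0733, 0.103, 0.0654 and 0.108 in WT kidneys 19, 20, 22 and 23 and 0.909 in the library labelled wild-type 24. The 3 kidneys with low Cyp24a1 had the 3 highest ratios, which follows in part from Cyp24a1 being the divisor. Across the 10 kidneys the levels of the enzymes showed no relation that passed a test (Pearson r = -0.15, permutation p = 0.681, adjusted p over 6 pairs 0.785; Spearman rho = -0.15, permutation p = 0.683, adjusted p 0.707). Without KO mouse 14 and the library labelled wild-type 24, r was 0.36.

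Vdr (ENSMUSG00000022479, chromosome 15, 97854425 to 97910630), the nuclear receptor of active vitamin D, was among the steadiest of the 10 genes. It was at 295, 280, 260, 253 and 224 CPM in KO kidneys, and at 273, 260, 285 and 269 CPM in WT kidneys 19, 20, 22 and 23, with 258 CPM in the library labelled wild-type 24. The KO kidneys reached both lower and higher than the WT kidneys. The log2 fold change was -0.04 (95% interval -0.22 to 0.14, edgeR adjusted p = 0.999), and -0.05 without that library. Vdr and Cyp24a1 had a Spearman rho of 0.67 (permutation p = 0.0395, adjusted p over 6 pairs 0.237), or 0.37 with library totals in place of TMM, and a Pearson r of 0.53 (permutation p = 0.121, adjusted p 0.338) over the 10 kidneys. Without KO mice 13 and 18 the r was 0.53 as well. After centring on the genotype means it was 0.50 (permutation p = 0.148, adjusted p 0.223).

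**Figure D3:**
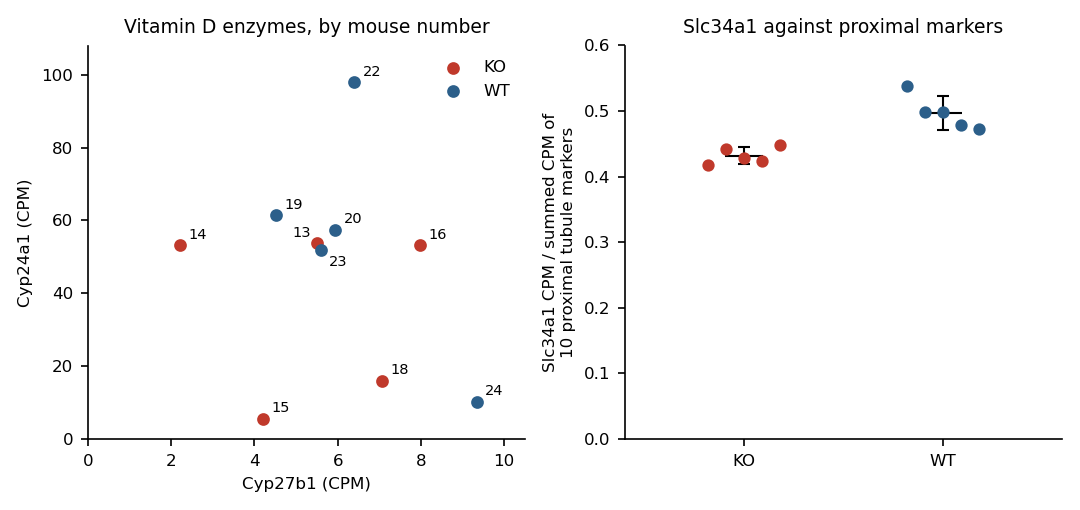
Left, Cyp24a1 against Cyp27b1 in CPM, 1 point per kidney with its mouse number, where KO kidneys 15 and 18 together with the library labelled wild-type 24 lie at 5.59 to 16.03 CPM of Cyp24a1 and the other 7 at 52.0 CPM or more. Right, Slc34a1 CPM divided by the summed CPM of 10 proximal tubule markers, with mean and SD, where KO kidneys lie between 0.417 and 0.449 and WT kidneys between 0.472 and 0.538.

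Trpv5 (ENSMUSG00000036899, chromosome 6, 41652173 to 41680769) encodes the apical calcium channel of the distal nephron. It was at 20.99, 14.2, 12.3, 14.5 and 13.8 CPM in KO kidneys, with mouse 13 above the rest. It was at 16.4, 13.6, 13.5 and 15.3 CPM in WT kidneys 19, 20, 22 and 23 and at 20.6 CPM in the library labelled wild-type 24. The log2 fold change was -0.07 (95% interval -0.38 to 0.25, edgeR adjusted p = 0.999). It changed sign to 0.05 without the library labelled wild-type 24, and was -0.21 without KO mouse 13. The summed level of 6 distal convoluted tubule markers (Slc12a3, Pvalb, Trpm6, Tmem52b, Wnk1 and Klhl3) was also highest in these kidneys, at 2143 CPM in KO mouse 13 and 1814 CPM in the library labelled wild-type 24, against 1420 to 1699 CPM in the other KO kidneys and 1433 to 1603 CPM in the other WT kidneys. Thick ascending limb markers were also highest in these kidneys, at 6138 CPM in KO mouse 13 and 6514 CPM in the library labelled wild-type 24. The connecting tubule and principal cell sum was 606 CPM in KO mouse 13, near the low end of the KO kidneys (588 to 989 CPM). In the library labelled wild-type 24 that sum was 786 CPM, within the WT range (698 to 808 CPM). The part of these sums in the Trpv5 values was not tested.

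Calb1 (ENSMUSG00000028222, chromosome 4, 15881264 to 15908064) encodes calbindin-D28k, which carries calcium through distal tubule cells. KO kidneys held 572, 475, 504, 416 and 474 CPM. WT kidneys 19, 20, 22 and 23 held 538, 549, 482 and 497 CPM, with 599 CPM in the library labelled wild-type 24. Of the KO kidneys 3 lay below the lowest WT kidney, while mouse 13 lay above all but 1 of them. The log2 fold change was -0.13 (SE 0.09, 95% interval -0.33 to 0.07, edgeR adjusted p = 0.999), and -0.08 without that library. The ratio of Calb1 to Trpv5 was 27.3 to 41.0 in KO kidneys and 29.1 to 40.5 in WT kidneys.

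Trpv5 and Calb1 had a Pearson r of 0.65 across the 10 kidneys (permutation p = 0.0437, adjusted p over 6 pairs 0.262) and a Spearman rho of 0.43 (permutation p = 0.218, adjusted p 0.436). Without KO mouse 13 and the library labelled wild-type 24, r was 0.07, so the relation rests on those kidneys. Kl and Calb1 gave r = 0.47 (permutation p = 0.169, adjusted p 0.338) and rho = 0.45 (permutation p = 0.192, adjusted p 0.436), with r = -0.29 without the same 2 kidneys. Slc34a1 and Slc34a3 gave r = 0.22 (permutation p = 0.545, adjusted p 0.785) and rho = 0.16 (permutation p = 0.657, adjusted p 0.707), with r = -0.31 without KO mouse 15 and WT mouse 19. Since the groups do not overlap in Slc34a1, the value centred on the genotype means is also given, r = 0.74 (permutation p = 0.0137, adjusted p 0.082). WT mouse 19 was the highest WT kidney in both genes, and without it and KO mouse 15 the centred r was 0.39, a value added after the data had been seen. Pth1r and Slc34a1 gave r = 0.10 (permutation p = 0.785, adjusted p 0.785) and rho = -0.14 (permutation p = 0.707, adjusted p 0.707), with r = -0.03 without KO mouse 18 and WT mouse 19. None of the 6 pairs passed after adjustment.

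Compared per kilobase of exon, the 10 genes kept a wide order of kidney levels. Slc34a1 averaged 1138 CPM per kb over the 10 kidneys (1010 to 1359), Pth1r 240 (207 to 315), Calb1 105 (85.8 to 124) and Kl 82.0 (71.2 to 99.4). Lower were Vdr at 47.0 (39.7 to 52.1), Slc34a3 at 25.9 (21.1 to 32.2), Cyp24a1 at 12.95 (1.57 to 27.5), Slc20a2 at 8.20 (6.86 to 9.65), Trpv5 at 4.78 (3.79 to 6.47) and Cyp27b1 at 2.28 (0.861 to 3.63). The ranges of neighbours in this order overlapped for Calb1 and Kl, and Cyp24a1 overlapped Slc34a3, Slc20a2, Trpv5 and Cyp27b1. Slc34a1, Pth1r and Vdr did not overlap their neighbours.

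In liver, the contrast to kidney, most of the 10 genes were at or near 0. Slc20a2 and Pth1r had enough liver reads to be tested. Slc20a2 was at 62.9, 66.0, 59.3, 52.9 and 51.9 CPM in KO livers 13, 14, 15, 16 and 18, and at 55.5, 59.7 and 66.2 CPM in WT livers 19, 20 and 22, with 58.5 CPM in the library labelled wild-type 24. The groups overlapped, with a log2 fold change of -0.03 (95% interval -0.25 to 0.18, edgeR adjusted p = 1), or -0.05 without that library. Pth1r was at 12.3, 12.8, 12.8, 20.0 and 16.3 CPM in KO livers, and at 17.3, 15.5 and 15.7 CPM in WT livers, with 15.1 CPM in the library labelled wild-type 24. Its KO livers lay on both sides of the WT livers (log2 fold change -0.10, 95% interval -0.42 to 0.23, edgeR adjusted p = 1; -0.13 without that library). Of these 2 genes 0 passed in liver by edgeR, against 0.0% of 14591 genes, and 0 by DESeq2, against 42 genes. At an unadjusted p under 0.05 the count was 0 of the 2 by either tool. Over all genes it was 4.17% by edgeR and 675 genes by DESeq2.

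The other 8 genes had 0 to 25 counts over all 9 livers. Slc34a3 and Trpv5 had 0, Slc34a1 and Cyp24a1 1 each, Kl 2, Calb1 3, Vdr 4 and Cyp27b1 25. Cyp27b1 had 5, 4, 10, 1 and 1 counts in KO livers 13, 14, 15, 16 and 18 and 0, 1 and 0 counts in WT livers 19, 20 and 22, with 3 in the library labelled wild-type 24. Its 21 KO counts against 4 WT counts were too few for the filter of the liver test.

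The KO effect was tested for a difference between kidney and liver. Of the 2 genes with enough reads in both tissues 0 passed by edgeR or by DESeq2. Over all 18549 genes 0.0% passed by edgeR and 11 genes by DESeq2. The difference, kidney minus liver on the log2 scale, was 0.01 for Slc20a2 (95% interval -0.28 to 0.30) and 0.11 for Pth1r (95% interval -0.28 to 0.50), both with adjusted p = 1. Neither was at an unadjusted p under 0.05. For the other 8 genes the liver counts were too few for a difference between tissues to be read.

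Between WT kidney and WT liver, Pth1r was 23.5-fold higher in WT kidney (log2 fold change 4.56, SE 0.16, edgeR adjusted p = 2.65e-17). Slc20a2 was lower in WT kidney (log2 fold change -1.13, SE 0.10, edgeR adjusted p = 8.95e-10). Both also passed by DESeq2 and without the library labelled wild-type 24. Of 18549 genes 40.2% passed as higher and 31.7% as lower in kidney by edgeR. By DESeq2 7614 genes passed as higher and 5922 as lower. The other 8 genes entered that fit through their kidney reads alone, so whether they passed says nothing more, and their levels are given as a description. With 3 counts over the WT livers as the floor and all 19 libraries scaled together, Slc34a1 was at least 126300-fold higher in kidney, Kl at least 16620-fold, Calb1 at least 11650-fold, Slc34a3 at least 1320-fold, Cyp24a1 at least 1222-fold and Trpv5 at least 347-fold. Vdr, with 2 counts in WT livers, was 8826-fold higher (exact Poisson interval 2443 to 72880, counting error only). Cyp27b1, with 4, was 104-fold higher (40.7 to 383). Of those 4 counts 3 came from the library labelled wild-type 24, and without both libraries of that number 1 count was left and the fold was 290 (52.1 to 11460); this setting was chosen with the values in view.

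The scaling bears on Slc20a2. With library totals in place of TMM, the median log2 difference of all genes between WT kidney and WT liver moved to 1.05, against 0.17 with TMM, and 84.5% of passing genes were higher in kidney, against 55.9%. Slc20a2 then differed by -0.24 (edgeR adjusted p = 0.0485) and Pth1r by 5.44, so the direction of both held.

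**Figure D4:**
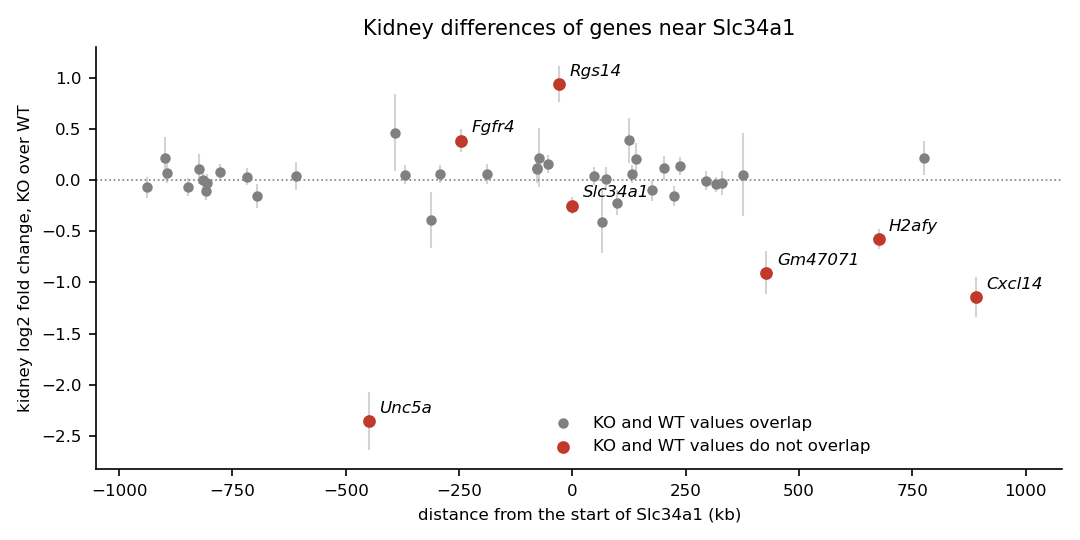
Kidney log2 fold change of KO over WT (points, with SE bars) of the 44 tested genes within 1 Mb of Slc34a1, against the distance in kb from its start, with negative values on the lower-coordinate side. The 7 genes whose KO and WT kidneys do not overlap are named, from Unc5a at -2.35 to Rgs14 at 0.94.

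Slc34a1 lies 0.658 Mb from H2afy on chromosome 13. Within 1 Mb of Slc34a1, 44 genes were tested in kidney, 26 with a higher and 18 with a lower KO mean. KO and WT kidneys did not overlap for 7 of them, against 0.562% of all genes, and 7 had an unadjusted edgeR p under 0.05, against 2.95%. They were Slc34a1, H2afy, Rgs14, Fgfr4, Unc5a (-2.35, adjusted p = 0.00775), the gene model Gm47071 (-0.91, adjusted p = 0.648) and Cxcl14, which encodes a chemokine (-1.14, adjusted p = 0.146). Both counts of 7 include Slc34a1, on which the window is centred, and the targeted gene H2afy. Unc5a, Gm47071 and Cxcl14 are named because their values stood out. Whether position near the targeted gene has a part in the Slc34a1 difference was not tested. In this design the loss of the isoform and other sequence linked to the deletion cannot be told apart.

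The nearest tested neighbour of Slc34a1, 13500 bp before it on the same strand, is Rgs14, which encodes a regulator of G-protein signalling known, from human proximal tubule cells, to act on hormone-sensitive phosphate uptake. Its difference ran the other way. KO kidneys held 2.41, 2.93, 2.92, 2.70 and 3.32 CPM, and WT kidneys 19, 20, 22 and 23 held 1.16, 1.62, 1.62 and 1.48 CPM, with 1.57 CPM in the library labelled wild-type 24. The groups did not overlap (log2 fold change 0.94, SE 0.18), and the difference did not pass in edgeR (adjusted p = 0.166) but passed in DESeq2 (adjusted p = 0.00155). In liver Rgs14 was at 0.316 to 0.832 CPM in KO mice and 0.309 to 0.826 CPM in WT mice (log2 fold change 0.09, adjusted p = 1). The difference between tissues was 0.85 (edgeR adjusted p = 1). The other 9 tested genes within 100 kb, Grk6, Lman2, Prr7, Dbn1, Mxd3, Prelid1, Rab24, Nsd1 and Pdlim7, ranged from -0.41 (Prr7) to 0.22 (Mxd3), with overlapping groups and edgeR adjusted p = 0.999 each.

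Other genes of the same pathways were read from 6 lists with 86 genes. No gene of these lists passed in kidney or in liver by edgeR. In kidney, 12 phosphate transport genes were tested, 3 with a higher and 9 with a lower KO mean (median -0.05). Outside the 10 genes the smallest p values were those of Slc9a3r2, a scaffold protein of the brush border (0.13), and the anion transporter Slc17a3 (-0.10, edgeR adjusted p = 0.999 for both). The list's summed level was 7063 to 7781 CPM in KO and 8082 to 9119 CPM in WT kidneys, without overlap, and Slc34a1 makes up most of that sum. Of 11 genes of parathyroid hormone, FGF23 and klotho signalling 8 were higher and 3 lower (median 0.06), led by Fgfr4 and Adcy6, an adenylyl cyclase (0.17, edgeR adjusted p = 0.999).

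Fgfr4, a receptor to which klotho and FGF23 bind, lies 229 kb from Slc34a1 on chromosome 13. It was at 62.8, 71.0, 64.8, 69.5 and 101 CPM in KO kidneys, against 55.5, 54.4, 59.2 and 53.5 CPM in WT kidneys 19, 20, 22 and 23 and 59.2 CPM in the library labelled wild-type 24. The KO kidneys were higher without overlap, with mouse 18 highest (log2 fold change 0.39, SE 0.11, edgeR adjusted p = 0.999; 0.41 without that library and 0.25 without KO mouse 18). KO livers held 53.0 to 73.5 CPM and WT livers 43.0 to 57.6 CPM, with the library labelled wild-type 24 the highest of the WT livers (log2 fold change 0.31, edgeR adjusted p = 1). The difference between tissues was 0.07 (adjusted p = 1).

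**Figure D5:**
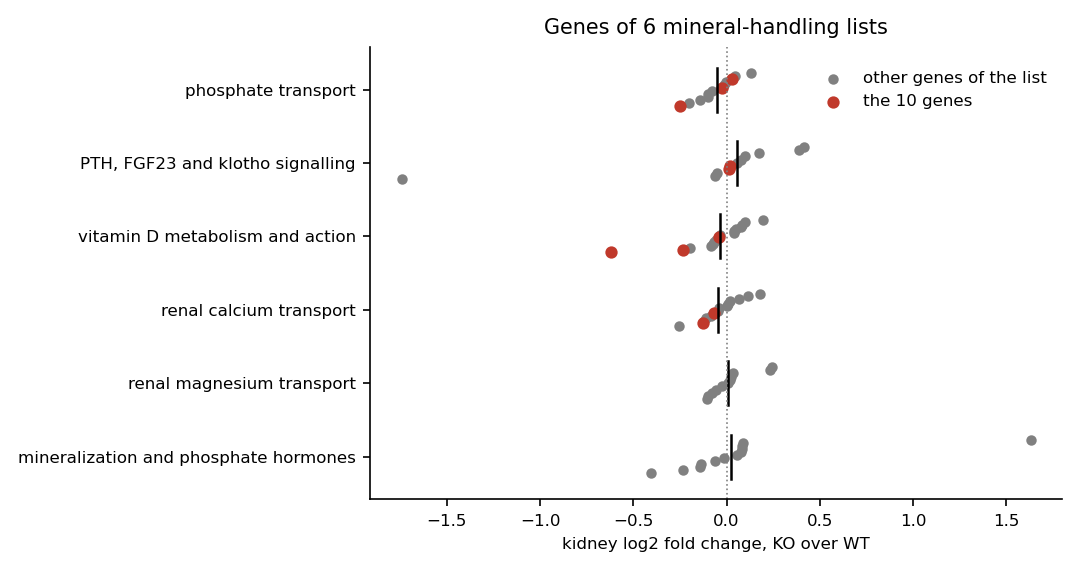
Kidney log2 fold change of KO over WT for each tested gene of 6 lists of mineral handling, with the 10 genes in red, the other genes in grey and the list median as a vertical line. The list medians lie between -0.05 and 0.06, and the single points far out are Egr1 (-1.74) and Ahsg (1.63), neither of which passed and each of which rests on 1 library (0.00 without the library labelled wild-type 24 for Egr1, -0.06 without KO mouse 13 for Ahsg).

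The vitamin D list had 7 higher and 9 lower genes of 16 tested (median -0.04), with the smallest p values outside the 10 genes for Pdia3 (-0.20), a membrane-associated vitamin D binding protein, and Cyp27a1 (0.08), a vitamin D hydroxylase. The calcium transport list had 6 higher and 8 lower of 14 (median -0.04), with Trpv6 (-0.26), an epithelial calcium channel, and the tight junction gene Cldn19 (0.18). The magnesium transport list had 6 higher and 5 lower of 11 (median 0.01), with the magnesium channel Trpm6 (0.25) and the transporter Slc41a3 (0.23). The mineralization list had 6 higher and 6 lower of 12 (median 0.02), with Ahsg, which encodes fetuin-A (1.63, at 0.909 ± 1.42 CPM in KO and 0.297 ± 0.22 CPM in WT kidneys, SD, n = 5 each), and Sost, which encodes sclerostin (-0.41). All of these had an edgeR adjusted p of 0.999. Ahsg was at 3.42 CPM in KO mouse 13 and at most 0.501 CPM in the other KO kidneys, and without that mouse its log2 fold change was -0.06. The Trpm6 log2 fold change was 0.05 without the same mouse. Egr1, an early response gene of the FGF23 signal, is named only for its place in the plot of the lists (-1.74, SE 0.93, adjusted p = 0.999); it was at 8.58 to 28.3 CPM in KO kidneys, against 11.1 to 15.7 CPM in WT kidneys 19, 20, 22 and 23 and 178 CPM in the library labelled wild-type 24. Without that library the Egr1 log2 fold change was 0.00.

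The kidney genes whose levels followed a member most closely across the 10 libraries, after centring on the genotype means, were found among 14546 genes of at least 1 CPM, and are given as a description. Slc34a1 was most like Tyw1 (r = 0.93), Polg2 (0.89) and Slc5a2 (0.87). Cyp24a1 was most like Smarcd3 (0.93), Ces2g (0.92) and B3gntl1 (0.91), and Cyp27b1 most like Wac (0.98), Dnajc5 (0.94) and Med14 (0.94). Kl was most like 4833439L19Rik, Pptc7 (both 0.99) and D5Ertd579e (0.98), and Calb1 most like Kbtbd2 (0.94), Gpld1 (0.92) and Smoc2 (0.92).

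Markers of 14 cell types were summed in each library, and no marker passed in either tissue by edgeR. Hepatocyte markers were low in kidney, where 8 genes summed to 90.2 to 144 CPM in KO and 75.8 to 125 CPM in WT kidneys, with Cyp7a1 at 0 in all 10, against 87400 to 113700 CPM in KO and 94770 to 95410 CPM in WT livers. The thick ascending limb sum was 4535 to 6138 CPM in KO and 4588 to 6514 CPM in WT kidneys, against at most 0.936 CPM in livers. Sums were 588 to 989 CPM in KO and 698 to 808 CPM in WT kidneys for connecting tubule and principal cells, 296 to 369 and 278 to 338 CPM for intercalated cells, and 346 to 426 and 344 to 394 CPM for podocytes. For the remaining types they were 797 to 980 CPM in KO and 846 to 1000 CPM in WT kidneys for cholangiocyte markers, 192 to 213 and 207 to 231 CPM for stellate cells and fibroblasts, 301 to 333 and 310 to 333 CPM for endothelial cells, and 82.6 to 99.0 and 85.8 to 98.4 CPM for macrophages. Adipocyte markers summed to 47.0 to 179 CPM in KO and 57.6 to 149 CPM in WT kidneys, B and T cell markers to 14.5 to 74.0 and 20.2 to 33.6 CPM, and skeletal muscle markers to 2.08 to 2.54 and 2.32 to 4.42 CPM. The KO and WT ranges overlapped in kidney for each of the 14 marker lists. The cholangiocyte list summed to 46.7 to 71.6 CPM in KO livers and 51.1 to 66.8 CPM in WT livers. Its higher kidney sum can therefore not be read as a measure of that cell type. In kidney, all 5 hepatocyte markers tested had a higher KO mean (median log2 fold change 0.27), 0 of them at an unadjusted edgeR p under 0.05. All 3 skeletal muscle markers tested in kidney had a lower KO mean (median -0.94), 1 of them at an unadjusted edgeR p under 0.05. In liver, all 5 skeletal muscle markers tested had a higher KO mean (median log2 fold change 2.13). Each was at an unadjusted edgeR p under 0.05 and none passed the threshold (smallest edgeR adjusted p = 0.766). Their list summed to 1.13 to 14.4 CPM in KO livers and 1.24 to 2.48 CPM in WT livers, so the ranges overlapped. Their part in the liver values was not tested.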

How the data were processed

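The authors deposited raw counts per gene for 26506 genes in 19 libraries, without normalization; every gene sums to at least 10 counts. The submitters' processing notes name Trim Galore, STAR, featureCounts, DESeq2 and the build GRCm38, without versions. They do not give the strand setting, and overlapping genes may share reads. Identifiers were matched to GENCODE M21 (26417 matched, 89 did not). Each tissue was tested with edgeR 4.0.16 (quasi-likelihood, robust, TMM, filterByExpr with a minimum count of 10, R 4.3.3), leaving 17269 genes in kidney and 14591 in liver. The interaction and the tissue contrast used 1 fit of all 19 libraries, over 18549 genes. The p-values were two-sided and Benjamini-Hochberg adjusted over all genes tested, at 0.05. Correlations used log2 CPM (prior count 2) with 100000 permutations. Intervals are at 95%. The fits were checked on simulated counts. The 10 genes and the lists were chosen with earlier results of these data known. Named genes were the 10, H2afy, up to 10 tested genes within 100 kb of Slc34a1, the 2 smallest kidney p values per list where none passed, and the 3 genes most alike. Pth, Fgf23, Gprc6a, Calb2, Dmp1 and Ankh were not analysed here. Alternatives were DESeq2 1.42.0, other scalings and filters, a joint fit, a block for mouse number, and leaving out mice.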

Additional observations from a re-analysis of the deposited data

Results flagged for a closer look

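Trpv5 in the kidney of KO mouse 13, at 20.99 CPM, lay far from the other 4 KO kidneys (12.3 to 14.5 CPM). Its gap to the nearest of them was 0.746 of the range of the group, above Dixon's critical value of 0.71. This was the 1 such value in 24 groups of libraries examined, and chance alone gives about 1 in 20. The same kidney had the highest sum of distal convoluted tubule markers (2143 CPM) and, among KO kidneys, of thick ascending limb markers (6138 CPM). Its sum for connecting tubule and principal cells (606 CPM) was near the low end of the KO kidneys (588 to 989 CPM). Without KO mouse 13 the Trpv5 log2 fold change was -0.21, against -0.07 with it, and it passed in neither case (edgeR adjusted p = 0.878 and 0.999).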

How the results depend on the processing

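None of the 10 genes passed in kidney under any alternative run. Slc20a2 and Pth1r, the 2 with liver values, passed under none in liver or in the difference between tissues, and both passed between WT kidney and WT liver under every one. Slc34a1, Cyp24a1, Cyp27b1 and Calb1 kept their sign in kidney in all 17 alternatives, and the other 6 genes, whose fold changes lay between -0.21 and 0.12, did not. The counts over all genes moved more. In kidney 1 gene passed, against 15 with DESeq2, 4 with no filter, 3 in 1 fit of all libraries and 12 without mice 16 and 24; leaving out 1 mouse gave 1 to 10, with 10 without KO mouse 16, 7 without the library labelled wild-type 24 and 2 without KO mouse 13, 14, 15 or 18. In liver 0 passed, against 42 with DESeq2, 3 with no filter, 21 in 1 fit of all libraries and 11 without mice 16 and 24; leaving out 1 mouse gave 0 to 7, with 7 without KO mouse 16, 5 without the library labelled wild-type 24 and 1 without KO mouse 13. For the difference between tissues 0 passed, against 11 with DESeq2 and 4 without mice 16 and 24; leaving out 1 mouse gave 0 to 3, with 3 without KO mouse 16 and 1 without KO mouse 14 or the library labelled wild-type 24. The cause of these shifts was not tested. At an unadjusted p under 0.05 the main edgeR counts were 509, 609 and 765. H2afy between WT kidney and WT liver reversed to 0.17 with library totals. With the mouse number as a replicate block, 0 genes passed for the difference between tissues and Slc20a2 differed between WT tissues by -1.10. Same-numbered kidney and liver correlated at 0.0827 to 0.416 over 9 pairs, 7 of them above 0.1, against -0.33 to 0.247 for other numbers of the same genotype, and 4 kidneys correlated best with their own number. The labels do not say that a number marks 1 animal, so the numbers were not used as pairs in the main fit. All 9 same-number correlations were positive. The tests between tissues in the main fit treat same-numbered kidney and liver as independent, which may not hold. The depth limits the liver: the 8 genes with 0 to 25 counts over 9 livers could not be tested there or between tissues.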
